A study of Mus musculus with 9 samples.

Results

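Integrins are the receptors by which cells hold on to the extracellular matrix. Their alpha and beta subunits were compared here between mouse fibroblasts, fibroblasts given doxycycline for 3 days and induced pluripotent stem (iPS) cells. The members were 10 integrin genes given by name: the alpha subunits Itga2, Itga3, Itga5, Itga6, Itga8, Itga11 and Itgav, and the beta subunits Itgb1, Itgb3 and Itgb5. Each had exactly 1 array row that maps to its symbol alone, so 10 of 10 were measured, among 19937 named genes. No filter on low values was applied, and all 10 entered every comparison.

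The 9 arrays form 3 groups of 3, and cells of all 3 groups carry the OG2-GFP/Rosa26-M2rtTA background, an Oct4-GFP reporter together with a reverse activator that makes inducible transgenes depend on doxycycline. The fibroblast group is passage 4 fibroblasts derived from TSKM-iPS mice, that is, mice made from iPS cells reprogrammed with Tet1, Sox2, Klf4 and c-Myc. The TSKM-3D group is such fibroblasts at passage 4 that then received doxycycline for 3 days, with feeder medium replaced by a medium for embryonic stem cells at the same time, so that both changes are part of this comparison. The iPS group is cells of an iPS line from this system at passages 10 to 15, grown with 1000 U/ml LIF on mitomycin-treated embryonic fibroblast feeders, which were depleted by letting them settle for 0.5 h before collection. The iPS group thus differs from both others in passage and feeders as well, and a LIF dose is given for it alone. These differences cannot be told apart from that of cell state. Steps and the whole course below name comparisons of groups, and the labels do not describe a culture followed over time. Whether replicate arrays stem from separate cultures is not stated in the labels, and the p-values therefore measure only a spread between arrays that may be technical.

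Each integrin is a pair of 1 alpha and 1 beta subunit, both spanning the membrane. The alpha subunit largely sets the ligand: alpha 5, alpha 8 and alpha v recognise the RGD peptide of fibronectin, vitronectin and related proteins, alpha 2 and alpha 11 bind collagens, and alpha 3 and alpha 6 bind laminins. Beta 1 pairs with every one of these alpha chains, whereas beta 3 and beta 5 pair with alpha v. The cytoplasmic tails of the beta chains bind talin and kindlin, which link them to actin. Mouse pluripotent cells in culture are known for laminin receptors built on alpha 6, and cultured fibroblasts for fibronectin and collagen receptors.

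The deposited values are log2 expression values, on which a difference of 1 is a 2-fold change. Array medians lay between 6.01 and 6.23, and a reading under its array's median is called dim below, since signal over background was not measured. The labels of the third fibroblast array disagree: its cell type entry describes cells induced for 3 days, its title, source and passage describe fibroblasts, and it is treated as fibroblast here. Its correlation across genes was 0.9978 and 0.9984 with the remaining fibroblast arrays but 0.9509 to 0.9548 with TSKM-3D, and for each of the 10 members its reading lay closer to the other fibroblast arrays' mean than to the TSKM-3D mean. The labelled cell types were checked against their markers. The summed linear values of 10 fibroblast markers ran from 22641 to 24479 on fibroblast arrays, 15551 to 16615 on TSKM-3D arrays and 5530 to 7388 on iPS arrays. Fap was dim throughout, and Lum on all TSKM-3D and iPS arrays. Not every marker followed the sums. From fibroblasts to TSKM-3D Twist1 rose from 8.86 to 10.1, Col1a2 from 11.91 to 12.51 and Col3a1 from 10.46 to 11.05. Dcn rose from 7.07 in TSKM-3D to 8.53 in iPS cells. The sums of 10 pluripotency markers ran from 363 to 390, 546 to 630 and 33199 to 33679, with 9, 7 and 0 of the 10 dim on all arrays of the group. The higher sum in TSKM-3D rested mainly on Pou5f1 (5.63 to 7.48) and Sox2 (5.15 to 6.54). Sox2 is also among the factors introduced in this system. Among 11 macrophage markers the sums were 1589 to 1741, 611 to 685 and 1267 to 1269, with 3, 10 and 9 of the 11 dim on all arrays of the group. Lyz2 fell from 9.18 in fibroblasts to 5.17 in TSKM-3D cells, whereas Cd68 stood at 7.49, 7.67 and 9.59 and rose from TSKM-3D to iPS, so the sums in fibroblasts and iPS cells rest on different genes. Over 4 measured platelet markers the sums were 1707 to 1741, 300 to 357 and 211 to 232, with Gp9 and Pf4 dim on every array. That sum followed 1 gene, Ppbp, which stood at 10.59, 6.99 and 5.14, while Itga2b, the platelet alpha chain, stood at 6.42, 6.74 and 6.55 and was not called. Over 6 smooth muscle markers the sums were 15216 to 15636, 13318 to 14631 and 5236 to 5392. These markers did not move alike. Acta2 stood at 13.05, 13.12 and 11.80, Tagln at 11.76, 11.85 and 10.02, and Cnn1 at 11.55, 10.18 and 8.27. Des, at 6.30, 5.49 and 7.48, was highest in iPS cells. From TSKM-3D to iPS 1 of the 6 was called higher and 3 lower. Whether macrophages, platelets or smooth muscle cells were present was not tested, nor was any part of theirs in the integrin results. The defining macrophage integrin genes Itgam, Itgax and Itgb2 were dim on all 9 arrays. Within that dim range Itgam was lower in TSKM-3D than in fibroblasts, at 4.71 against 5.27 (limma, adjusted p = 0.000667), under 2-fold. Itgax and Itgb2 did not pass the adjusted p there (0.363 and 0.236). In such bulk samples, fewer cells of a type and less RNA per cell cannot be told apart.

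Of these 10 members more were called lower than higher in each comparison, and the members called higher in any of them were the laminin-binding Itga3 and Itga6. A gene was called when its adjusted p (limma, Benjamini-Hochberg over all 19937 genes) was under 0.05 and its change at least 2-fold. The members were chosen with earlier results of these data known, so their counts and medians do not stand for integrin genes at large. Of 16 other integrin subunits 2, 1 and 1 were called higher and 0, 3 and 2 lower in the 3 comparisons. In the first, 5 of them were lower at an unadjusted p under 0.05 (limma). Between fibroblasts and TSKM-3D, 4 of the 10 members fell (Itga5, Itga8, Itga11 and Itgb5) and 0 rose, where 7.58% of all genes were called lower and 3.25% higher; 2 members, Itga6 and Itgb1, were above the fibroblast level at an unadjusted p under 0.05. Between TSKM-3D and iPS, 3 fell (Itga11, Itgav and Itgb1) and 2 rose (Itga3 and Itga6), where 8.57% of all genes were called lower and 6.48% higher. Between fibroblasts and iPS, 6 fell (Itga5, Itga8, Itga11, Itgav, Itgb3 and Itgb5) and 1, Itga6, rose, where 13.8% of all genes were called lower and 7.63% higher. The median log2 change of the 10 members was -0.53, -0.52 and -1.56 in the 3 comparisons, against 0.05, -0.01 and 0.05 for all genes. With the adjusted p alone and no fold requirement, 2 members were higher and 7 lower in the first comparison (19.2% and 25.3% of all genes), 2 and 6 in the second (22.3% and 23.2%), and 2 and 7 in the third (25.5% and 29.1%). The comparisons share arrays and are not independent of each other. Placing the third fibroblast array with TSKM-3D, as its cell type label has it, left 0 members called between fibroblasts and TSKM-3D in limma, with 5 lower and 2 higher at an unadjusted p under 0.05. Under that placement 0 of all 19937 genes were called in either direction (limma; 3433 were lower and 1926 higher at an unadjusted p under 0.05), so this 0 is not particular to the members. Leaving that array out kept the same 4 members lower.

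**Figure D1:**
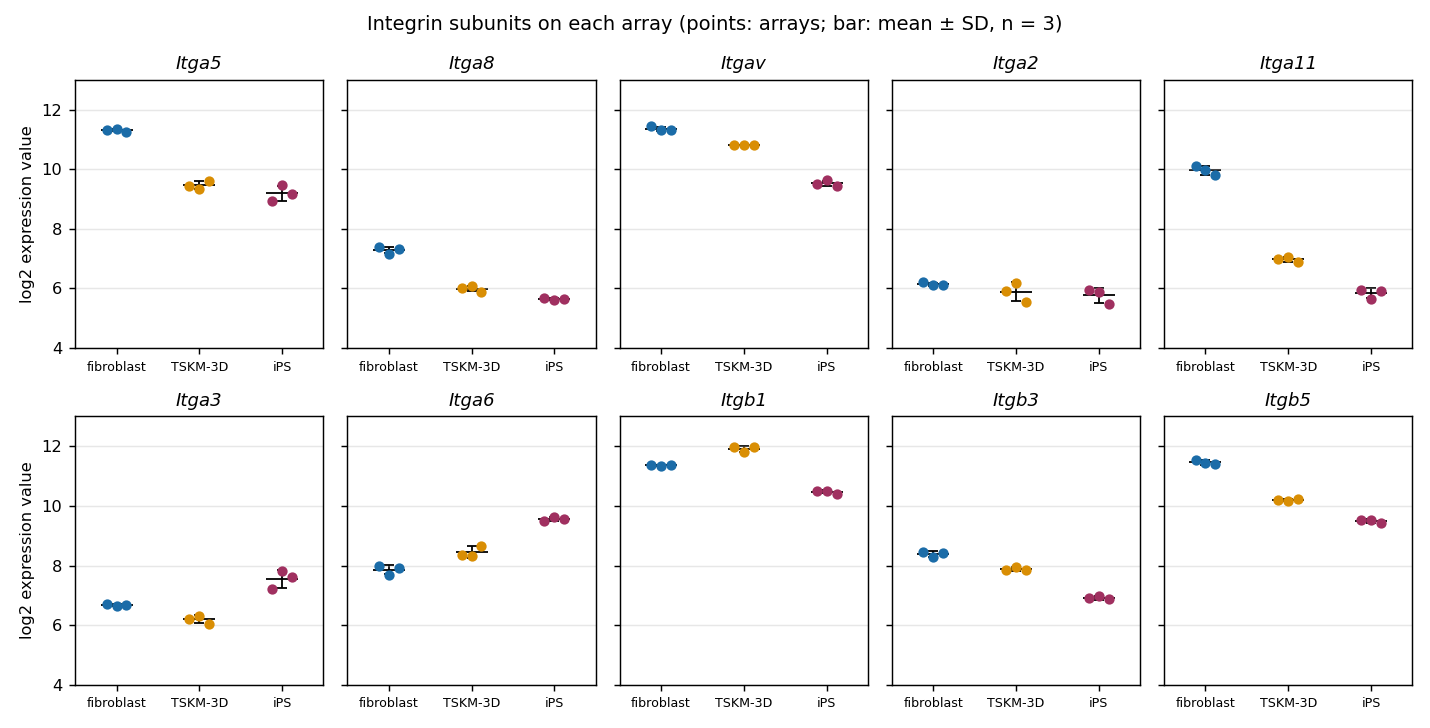
Log2 expression value (vertical axis) of each of the 10 integrin subunits on fibroblast, TSKM-3D and iPS arrays; each point is 1 array and the bars give the mean ± SD of 3 arrays. Itga6 climbs from a mean of 7.86 to 9.56, Itga11 drops from 9.96 to 5.85, and Itgb1 is highest in the TSKM-3D group at 11.91.

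The RGD-binding alpha subunits Itga5, Itga8 and Itgav were all called lower in iPS cells than in fibroblasts. Itga5 encodes the alpha chain of the main fibronectin receptor. It read 11.31, 11.35 and 11.26 on the fibroblast arrays, 9.45, 9.33 and 9.61 on the TSKM-3D arrays, and 8.95, 9.46 and 9.17 on the iPS arrays. The fibroblast arrays were thus apart from all others, while the TSKM-3D and iPS ranges overlapped. Itga5 fell 3.58-fold by TSKM-3D (log2 change -1.84 ± 0.12 SE, n = 3 arrays per group; adjusted p = 2.15e-07). From there to iPS it differed by -0.27, with a 95% interval of -0.54 to -0.01 and an adjusted p of 0.0927.

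Itga8 encodes the alpha chain of a receptor for nephronectin and fibronectin. Its readings were 7.38, 7.17 and 7.32 in fibroblasts, 6.02, 6.07 and 5.89 in TSKM-3D and 5.69, 5.61 and 5.64 in iPS cells. The 3 groups did not overlap, although every TSKM-3D and iPS reading was dim, so the size of the change is uncertain. The fall to TSKM-3D was 2.46-fold (-1.30 ± 0.08; adjusted p = 1.62e-07), and the next difference, -0.35 ± 0.08, passed the adjusted p (0.00415) but not 2-fold. Npnt, which encodes the Itga8 ligand nephronectin, was called lower in both steps, from 9.59 to 7.91 and then to 6.75.

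Itgav, whose product pairs with beta 1, beta 3 and beta 5 and also releases latent TGF-beta, was below the level before it in both steps and passed 2-fold in the second. It read 11.44, 11.30 and 11.32 in fibroblasts, 10.81, 10.81 and 10.82 in TSKM-3D, and 9.5, 9.63 and 9.45 in iPS cells. No groups overlapped, and the order was fibroblast, TSKM-3D, iPS from high to low. The first difference, -0.54 ± 0.08, passed the adjusted p (0.000117) but was under 2-fold. Itgav then fell 2.43-fold to iPS (-1.28 ± 0.08; adjusted p = 6.45e-08), and 3.54-fold over the whole course. Of its RGD ligands, Fn1 (fibronectin) had means of 13.03 and 12.48 in fibroblasts and TSKM-3D and read 11.94 to 12.07 in iPS cells, and was called lower only over the whole course among the 3 comparisons made (-1.03 ± 0.07), while Vtn (vitronectin) was at 5.13, 5.40 and 5.27 and was not called.

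Of the collagen-binding alpha subunits, Itga11 had the widest range of group means among the members. Itga11 encodes a receptor chain for fibrillar collagen that is typical of mesenchymal cells. On the fibroblast arrays it read 10.10, 9.98 and 9.81, on the TSKM-3D arrays 7.0, 7.06 and 6.90, and on the iPS arrays 5.96, 5.66 and 5.93. The groups did not overlap, and all 3 iPS readings were dim. Itga11 fell 7.88-fold by TSKM-3D (-2.98 ± 0.10; adjusted p = 2.35e-09) and a further 2.20-fold to iPS (-1.14 ± 0.10; adjusted p = 2.46e-06), which made 17.3-fold in all. Tested against a 2-fold change rather than 0, the second of these falls no longer passed (adjusted p = 0.886).

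Itga2, the alpha chain of a collagen receptor of platelets and epithelia, showed no call in any of the 3 comparisons. It read 6.22, 6.11 and 6.10 in fibroblasts, 5.92, 6.19 and 5.56 in TSKM-3D, and 5.95, 5.87 and 5.48 in iPS cells. TSKM-3D overlapped both other groups, and all TSKM-3D and iPS readings were dim. The fibroblast readings lay just above the medians of their arrays, 6.04 to 6.05. Between iPS and fibroblasts the difference was -0.37, with a 95% interval of -0.72 to -0.03 and an adjusted p of 0.0647. Its mean lay below the median of all array rows.

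Among the members, the laminin-binding Itga3 and Itga6 were those called higher in any comparison. Itga7, a further laminin-binding alpha chain outside the members, did not share this. It changed by -0.51 between fibroblasts and TSKM-3D, 0.14 between TSKM-3D and iPS, and -0.37 over the whole course, and was not called. Itga6 encodes the alpha chain of the laminin receptor alpha 6 beta 1. It read 7.97, 7.69 and 7.92 in fibroblasts, 8.36, 8.33 and 8.67 in TSKM-3D and 9.48, 9.63 and 9.57 in iPS cells, with no overlap and each group above the one before. Against fibroblasts TSKM-3D differed by 0.59 ± 0.11 (1.51-fold; adjusted p = 0.000796), short of 2-fold. Itga6 rose 2.15-fold from TSKM-3D to iPS (1.11 ± 0.11; adjusted p = 4.47e-06) and 3.25-fold from fibroblasts to iPS (1.70 ± 0.11; adjusted p = 6.92e-08). With array medians set equal the step from TSKM-3D to iPS was 0.99 ± 0.13, just inside 2-fold, and was then not called.

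Itga3, the alpha chain of a second laminin receptor, was at its lowest in TSKM-3D. Its readings were 6.71, 6.65 and 6.66 in fibroblasts, 6.22, 6.32 and 6.05 in TSKM-3D, and 7.21, 7.82 and 7.62 in iPS cells. The groups did not overlap. The first difference was -0.48 ± 0.14 (adjusted p = 0.0128), under 2-fold, and Itga3 then rose 2.55-fold to iPS (1.35 ± 0.14; adjusted p = 4.89e-06). Its TSKM-3D readings were not dim but lay close to the medians of those arrays, 6.01 to 6.20, so the size of this rise is uncertain. Against fibroblasts the iPS level differed by 0.87 ± 0.14 (1.83-fold; adjusted p = 0.000144). Without the first iPS array, the lowest of its group, this difference was 1.04 and was called. Neither Itga3 nor Itga6 passed a test against 2-fold between TSKM-3D and iPS (adjusted p = 0.116 and 1.0).

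Their ligands, the laminin chains, moved in both directions. Lama5, the alpha chain of the laminin that supports pluripotent cells, rose from 7.17 in TSKM-3D to 9.35 in iPS cells (2.18 ± 0.13), and Lama1, found in the early embryo, was 3.44-fold higher in iPS cells than in fibroblasts. Lama2 and Lama4, chains of mesenchymal and vessel laminins, were lower in iPS than in TSKM-3D, with log2 changes of -3.56 and -3.29. Lama2 had risen by 1.51 in the step before. The shared chains had means of 10.13, 10.87 and 9.24 for Lamb1 and 9.69, 10.35 and 10.76 for Lamc1 in fibroblasts, TSKM-3D and iPS cells, so Lamb1 was highest in TSKM-3D and Lamc1 in iPS cells.

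**Figure D2:**
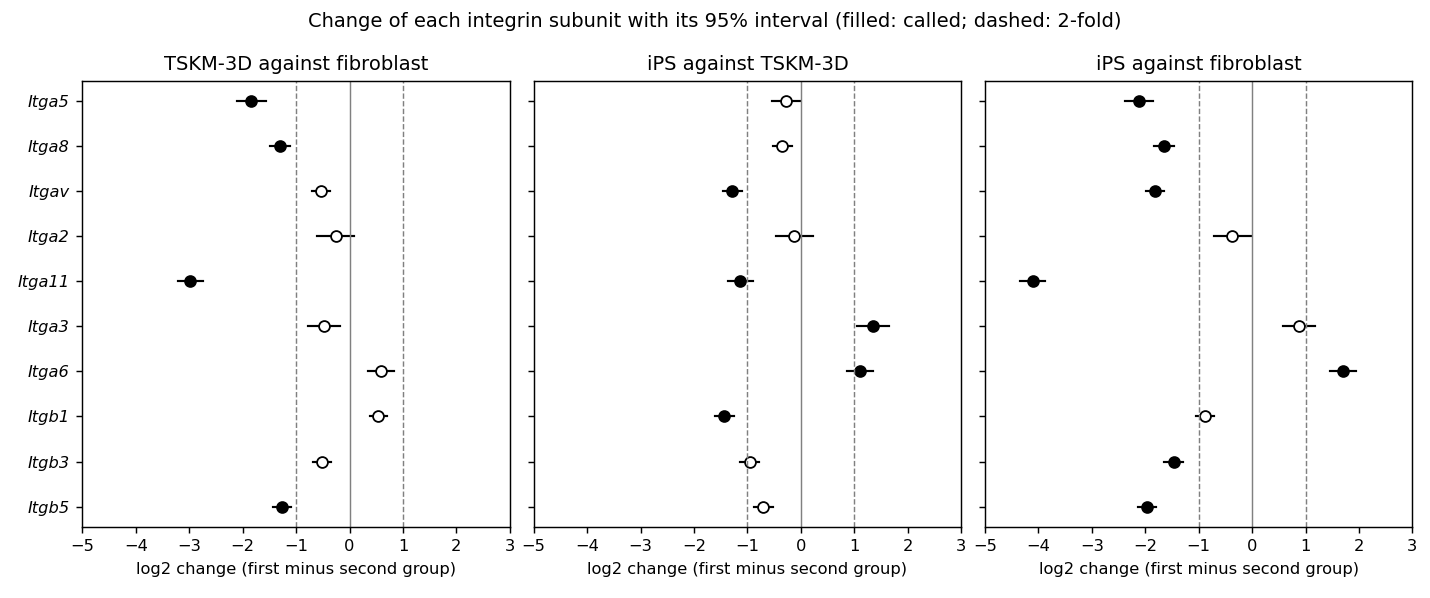
Log2 change (horizontal axis) of each integrin subunit in the 3 comparisons, with its 95% interval from limma; filled points were called, open points were not, and dashed lines mark 2-fold. The laminin-binding Itga3 and Itga6 lie right of 0 in both comparisons with iPS cells, and Itga11 lies furthest left at -4.11 between iPS and fibroblasts.

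Of the beta subunits, Itgb1 was highest in TSKM-3D, while Itgb3 and Itgb5 were lower in each group than in the one before. Itgb1, the partner of most alpha chains, read 11.37, 11.35 and 11.38 in fibroblasts, 11.96, 11.80 and 11.97 in TSKM-3D, and 10.51, 10.51 and 10.41 in iPS cells. TSKM-3D was above both other groups on every array. The first difference was 0.54 ± 0.08 (1.46-fold; adjusted p = 9.79e-05), under 2-fold, and Itgb1 then fell 2.69-fold to iPS (-1.43 ± 0.08; adjusted p = 2.18e-08). Over the whole course it differed by -0.89 ± 0.08, which is not a call here but became one, at -1.06, with array medians set equal.

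Itgb3 and Itgb5 encode beta chains that pair with alpha v in the vitronectin receptors. Itgb3 read 8.47, 8.29 and 8.43 in fibroblasts, 7.85, 7.95 and 7.85 in TSKM-3D and 6.90, 6.99 and 6.88 in iPS cells, a stepwise order without overlap. Neither of its single steps was called, the second narrowly (-0.96 ± 0.08, against -1.07 with medians set equal and -1.03 after quantile normalization, both called). Over the whole course Itgb3 fell 2.78-fold (-1.47 ± 0.08; adjusted p = 1.41e-08).

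Itgb5 read 11.55, 11.44 and 11.40 in fibroblasts, 10.19, 10.17 and 10.22 in TSKM-3D, and 9.53, 9.54 and 9.41 in iPS cells. Its groups did not overlap either. Itgb5 fell 2.41-fold by TSKM-3D (-1.27 ± 0.08; adjusted p = 9.92e-08), differed by -0.70 ± 0.08 in the next step, and fell 3.91-fold over the whole course. Arrays did not overlap for 9, 8 and 10 of the 10 members in the 3 comparisons, where this held for 53.1%, 49.5% and 65.0% of all genes. The changes of different subunits were not tested against each other.

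Promoter windows from RefSeq (GRCm38.p6, 250 bases before to 50 after an annotated start) were found for 8 of the 10 members; Itga6 and Itgb3 were not matched. The first 4 shown are those of the members that fell by TSKM-3D, and the fifth is the upstream window of Itga3, which rose from TSKM-3D to iPS. Each is printed 5′ to 3′ on the gene's strand, and capitals mark the GC box GGGCGG and the KLF core CACCC, found on either strand; these motifs have no letters in common where they occur here.
Itga5 (chr15:103366742-103367041, minus strand): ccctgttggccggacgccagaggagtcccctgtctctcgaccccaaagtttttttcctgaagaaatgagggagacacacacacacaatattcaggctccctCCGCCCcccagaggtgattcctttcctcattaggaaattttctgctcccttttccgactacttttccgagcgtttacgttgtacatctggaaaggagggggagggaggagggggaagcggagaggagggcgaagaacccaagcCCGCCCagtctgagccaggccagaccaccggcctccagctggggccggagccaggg
Itga8 (chr2:12301895-12302194, minus strand): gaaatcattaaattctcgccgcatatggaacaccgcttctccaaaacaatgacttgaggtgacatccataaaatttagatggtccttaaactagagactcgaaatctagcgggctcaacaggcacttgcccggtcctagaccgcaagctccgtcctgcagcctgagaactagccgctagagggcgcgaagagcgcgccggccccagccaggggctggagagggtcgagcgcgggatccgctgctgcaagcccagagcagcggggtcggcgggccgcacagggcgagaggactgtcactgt
Itga11 (chr9:62677605-62677904, plus strand): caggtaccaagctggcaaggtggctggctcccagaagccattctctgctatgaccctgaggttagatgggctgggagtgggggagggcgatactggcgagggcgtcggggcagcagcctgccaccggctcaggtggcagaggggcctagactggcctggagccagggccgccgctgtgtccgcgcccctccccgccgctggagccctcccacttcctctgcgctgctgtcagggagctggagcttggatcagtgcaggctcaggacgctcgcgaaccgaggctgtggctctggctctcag
Itgb5 (chr16:33829415-33829714, plus strand): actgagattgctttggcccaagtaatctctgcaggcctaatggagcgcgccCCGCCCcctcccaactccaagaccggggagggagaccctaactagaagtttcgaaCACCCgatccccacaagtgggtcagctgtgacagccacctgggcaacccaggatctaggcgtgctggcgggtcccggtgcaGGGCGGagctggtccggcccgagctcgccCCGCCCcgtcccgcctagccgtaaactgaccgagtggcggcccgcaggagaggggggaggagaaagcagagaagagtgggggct
Itga3 (chr11:95076665-95076964, minus strand): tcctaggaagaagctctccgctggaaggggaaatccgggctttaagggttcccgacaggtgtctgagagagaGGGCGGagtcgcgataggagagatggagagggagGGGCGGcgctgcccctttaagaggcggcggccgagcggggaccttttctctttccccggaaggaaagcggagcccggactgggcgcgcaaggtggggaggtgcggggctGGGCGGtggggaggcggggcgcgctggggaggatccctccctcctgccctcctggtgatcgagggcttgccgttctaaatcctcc

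The GC box, a site for SP and KLF family factors, was in the window nearest upstream for 6 of the 8 members and in 35.7% of 32851 windows of all genes. Itgb5 and Itga3 held 3 each and Itga5 held 2, whereas Itga8 and Itga11 held 0 GC boxes and 0 KLF cores. The KLF core was in 4 of the 8 and in 57.5% of all windows. The TATA box TATAAA, the MYC E-box CACGTG and the octamer ATTTGCAT were in 0 of 9 windows of members, against 13.6%, 7.2% and 1.7% of all, and the AP-1 site TGANTCA was in 1, a second, downstream window of Itga3, against 7.8%. The median GC content of the 9 member windows was 65.7%, against 52.7% of all. These are matches of letters in short windows, not binding sites, and the 4 members that fell together by TSKM-3D did not share them.

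The other 16 integrin subunit genes on the array, from a list of the remaining alpha and beta chains, were described in the same way. Between fibroblasts and TSKM-3D 2 rose and 0 fell (limma; 5 were lower at an unadjusted p under 0.05), between TSKM-3D and iPS 1 rose and 3 fell, and over the whole course 1 rose and 2 fell. Of all genes 3.25% were called higher and 7.58% lower in the first comparison, 6.48% and 8.57% in the second, and 7.63% and 13.8% in the third. Itga4, the alpha chain of the VCAM1 and fibronectin receptor alpha 4 beta 1, had a mean of 6.46 in fibroblasts, 9.24 in TSKM-3D and 5.54 in iPS cells, and so rose 6.86-fold and then fell, by the readings, 12.9-fold. Itgb8, which pairs with alpha v and releases latent TGF-beta, rose 4.20-fold from 6.51 to 8.58 and then fell 9.62-fold to 5.32. In both genes the TSKM-3D arrays lay above all others. All 3 iPS readings of Itga4, Itgb8 and Itga1 were dim, so the sizes of their falls to iPS are uncertain. Vcam1, a ligand of alpha 4 beta 1, stood at 10.15, 11.13 and 6.30, and fell 28.4-fold from TSKM-3D to iPS. From TSKM-3D to iPS 3 of the 16 fell, the collagen receptor gene Itga1 (7.72 to 5.37) beside Itga4 and Itgb8, and 1 rose, Itgb7, from 5.66 to 6.80. All fibroblast and TSKM-3D readings of Itgb7 were dim, so the size of its rise is uncertain too. Itgb7 was not called in that step without the third TSKM-3D array, the lowest of its group at 5.25. From fibroblasts to iPS 2 fell, Itga1 and Itgb8, and Itgb7 rose by 1.16 ± 0.15, which with array medians set equal was 0.99 and not called. The median change of the list was 0.03, 0.01 and -0.07.

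**Figure D3:**
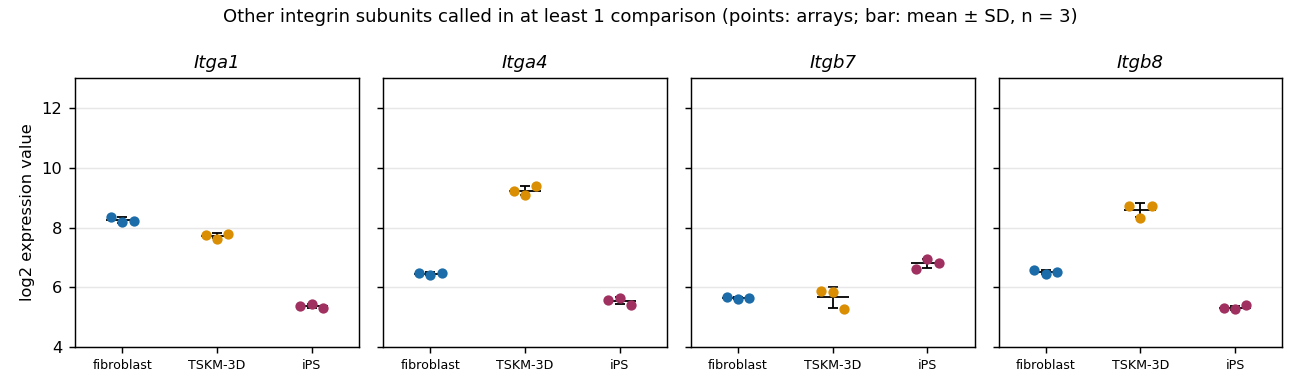
Log2 expression value (vertical axis) of the 4 other integrin subunits that were called in at least 1 comparison, by group; each point is 1 array and the bars give the mean ± SD of 3 arrays. Itga4 and Itgb8 peak in TSKM-3D at 9.24 and 8.58, and Itga1 has its lowest mean, 5.37, in iPS cells.

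The ligand, adaptor and traffic lists had more calls in the second step than in the first and the partner list had fewer, and the steps were not tested against each other. Their counts are read against the shares of all genes given for the other subunits. Those shares were also larger in the second step (6.48% higher and 8.57% lower) than in the first (3.25% and 7.58%). The partner and traffic counts are too small to set these lists apart. Of 35 ligand genes 3 rose and 6 fell between fibroblasts and TSKM-3D, 2 rose and 17 fell between TSKM-3D and iPS, and 4 rose and 20 fell over the whole course. Lrrc32, which holds latent TGF-beta at the cell surface, fell by 4.36 in the first step and Edil3, an RGD protein, by 3.21, while the matricellular genes Ccn1 and Ccn2 rose by 1.11 and 1.17. Fbln5, an elastic fibre protein with an RGD site, fell by 3.65 in the second step. Collagen genes that encode ligands of alpha 11 and alpha 2 were not called in the first step: Col1a1 stood at 12.20, 12.31 and 11.47 and was not called in any comparison, whereas Col1a2 fell by 1.56 and Col3a1 by 2.30 from TSKM-3D to iPS. The iPS group was the only one grown on feeder fibroblasts. The share of its signal that came from them was not tested, for collagens or for the integrin subunits.

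Of 37 adaptor and focal adhesion genes 1 rose and 4 fell in the first step, 1 rose and 16 fell in the second, and 2 rose and 20 fell over the whole course. The median change was -0.13, -0.69 and -1.16. Of the 6 listed genes of the complex that sits on beta tails 4 fell from TSKM-3D to iPS, with log2 changes of -2.08 ± 0.13 for Ilk, its scaffold, -3.02 ± 0.08 for Parva, -1.2 for Lims1 and -1.19 for Rsu1. The other parvin and PINCH genes, Parvb and Lims2, were not called in that step (0.35 ± 0.13 and -0.26 ± 0.10), and Parvb had fallen by 1.67 in the first. Among tail-binding activators Tln1 (talin) fell by 1.02 in the second step and Fermt2 (kindlin-2) by 1.18, and among actin-side proteins Vcl (vinculin) by 2.22 and Zyx (zyxin) by 2.43. Tln2, Fermt1 and Fermt3 were not called in that step (0.24, -0.07 and 0.02). Cav1, a caveolar protein that binds integrins, fell by 3.55. Tns3 rose by 1.67. Tns1 was counted as higher in the first and whole-course comparisons from its brightest row (2.24 and 2.62), but its other 5 rows had changes of -2.54 to -0.75 in the first, so its direction is uncertain. Over the whole course the fall of Tln1 was -0.97 after quantile normalization and then not called.

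Of 16 tetraspanins and other membrane partners 1 rose and 4 fell in the first step, 0 rose and 4 fell in the second (limma; 2 were higher at an unadjusted p under 0.05), and 1 rose and 9 fell over the whole course. Cd9, a tetraspanin that associates with alpha 3 and alpha 6 integrins, rose by 1.54 ± 0.09 to TSKM-3D and stood at 11.55 in iPS cells. Cd82 and Tspan4 fell by 1.5 and 1.36 in the first step, and Cd47, an alpha v beta 3 partner, by 1.72 in the second. Of 18 integrin traffic genes 0 rose and 1 fell in the first step (limma; 8 were higher at an unadjusted p under 0.05), 1 rose and 3 fell in the second and 2 rose and 2 fell over the whole course. Nothing particular to the traffic list is read from these counts. The list also holds Rcn1, which encodes reticulocalbin 1 and is not an established integrin traffic gene. Its means of 10.75, 10.52 and 9.86 lay within 2-fold of each other, so it added to no count of calls. The endocytic adaptor gene Dab2 fell by 2.79 and then by 1.22, although a second row of Dab2 changed by -0.01 and 0.03, and Rab11fip1, a recycling factor, rose by 1.80 from TSKM-3D to iPS.

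**Figure D4:**
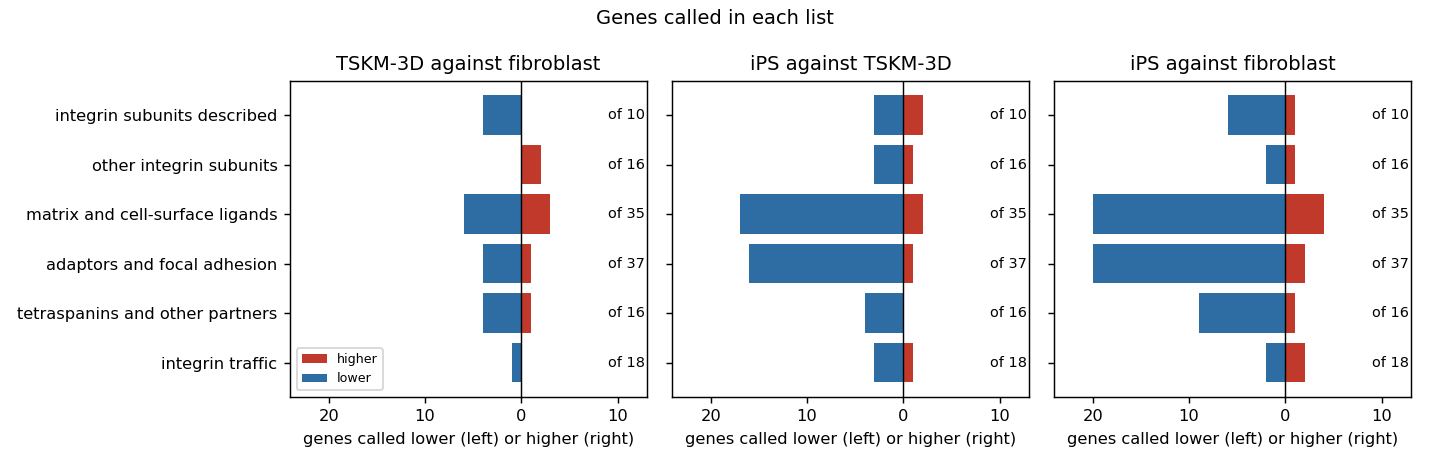
Number of genes called lower (left of 0) or higher (right of 0) in each comparison for the 10 integrin subunits and 5 related lists; the number measured in each list stands at the right of each bar. The ligand list has 17 and the adaptor list 16 genes lower between TSKM-3D and iPS.

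For each member the 2 genes with the most similar profile over the 9 arrays, by Pearson correlation of log2 values, were looked up among named genes. With 3 groups, such a correlation reflects the order and spacing of the group means. Itga11 was closest to Ppard and to Ptn, a secreted growth factor gene (both r = 0.999), and Itgb5 to the matrix genes Col6a2 and Smoc2 (both 0.999). The genes closest to Itgav were the matrix genes Col12a1 and Adamts12 (0.999 for the second). Itgb1, with its high TSKM-3D level, was closest to Matn2 and Ptx3 (both 0.998), Itga3 to Rbm47 (0.997), Itga5 to Fads1 (0.998), Itga8 to Atn1 (0.997), Itga6 to Nup133 (0.996), Itgb3 to Sel1l (0.997) and Itga2, whose group means lay close together, to Klhl36 (0.969). Among the 45 pairs of members r ran from -0.98 to 1.0, and 16 pairs were below 0.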

How the data were processed

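RNA of each sample went onto its own Affymetrix whole-transcript array after biotin labelling, per the labels. The authors deposited log2 values for 34760 array rows; how these were background-corrected, summarized and normalized is not given in the sources used here. No further scaling was applied. The platform's probe table gave 21640 rows a single symbol, 1321 rows several (left out of named genes) and did not list 11799 rows, which are unnamed here. By gene identifier, 21553 of the single-symbol rows matched the GRCm38.p6 gene table. Where a gene had several rows the one with the highest mean stood for it, which gave 19937 genes.

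All 9 arrays entered a single limma fit (version 3.58.1, R 4.3.3; lmFit and eBayes) without covariates, which was tested on simulated data. Errors of changes are moderated standard errors, and the small number of arrays limits their precision. The members and related gene lists were chosen with earlier results of these data known. All members are described; from the lists, called genes could be named, with the largest changes in each direction as examples, and for each member the 2 genes of closest profile, leaving out clone and predicted names. Alternatives covered scaling, the call rule, dim genes, row choice, the spread, the replicate block, the third fibroblast array's label and leaving out each array. Protein sequences were not used here.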

Additional observations from a re-analysis of the deposited data

How the results depend on the processing

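Over 21 alternatives the members kept their direction and side of the threshold in 595 values, were newly called in 21, lost a call in 9 and changed sign in 2. Both sign changes were for Itga2 between TSKM-3D and iPS, which was never called: 0.03 without TSKM-3D replicate 2 and 0.02 without iPS replicate 3, against -0.12 with all arrays and a lowest value of -0.29 without TSKM-3D replicate 3. Counts of called members that moved by over 1.5 times were these. Between fibroblasts and TSKM-3D the count of higher members went from 0 to 1 at 1.5-fold and 2 with the adjusted p alone, and that of lower members from 4 to 7 with the adjusted p alone and to 0 with the third fibroblast array placed in TSKM-3D, where 0 of all 19937 genes were called either (limma; 3433 lower and 1926 higher at an unadjusted p under 0.05). That placement mixes arrays that read 9.81 and 6.90 to 7.06 for Itga11 in 1 group. Between TSKM-3D and iPS the count of higher members went from 2 to 1 with array medians set equal and to 0 in the test against 2-fold (limma; 1 at an unadjusted p under 0.05), and that of lower members from 3 to 5 at 1.5-fold and 6 with the adjusted p alone. Between fibroblasts and iPS the count of higher members went from 1 to 2 at 1.5-fold, with the adjusted p alone and without iPS replicate 1; leaving out single arrays gave 1 to 2. Smaller moves were in lower members: 3 to 4 between TSKM-3D and iPS with medians set equal, with quantile normalization and with the third fibroblast array placed in TSKM-3D, 3 to 2 in the test against 2-fold, and 6 to 7 between fibroblasts and iPS with medians set equal, at 1.5-fold and with the adjusted p alone. Setting medians equal moved the median of all genes from 0.05 to -0.12 between fibroblasts and iPS and from -0.01 to -0.13 between TSKM-3D and iPS. With genes under the median of all rows left out, Itga2 was not in the fit.

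Same-numbered arrays of different groups had deviations from their group means that correlated at -0.098 to 0.062 across genes. For arrays with different numbers the range was -0.132 to 0.13. These values gave no sign that the numbers pair the samples, but with 3 arrays per group they cannot exclude it. With the replicate block the members called between fibroblasts and TSKM-3D were 0 higher and 4 lower in limma (2 higher at an unadjusted p under 0.05), between TSKM-3D and iPS 2 and 3, and between fibroblasts and iPS 1 and 6, the numbers found without it. Signal over background was not measured, so changes that end in dim readings (Itga2, Itga8, Itga11 and, among other subunits, Itga1, Itga4 and Itgb8) are uncertain in size. The same holds for the rise of Itgb7, which starts from dim readings.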
